A study of Mus musculus with 26 samples.

Results

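A single germinal vesicle (GV) oocyte, scored as intermediate because Hoechst stain formed an incomplete ring around its nucleolus, was placed transcript by transcript between the oocytes at either end of the same change in chromatin. It was 1 of 26 oocytes with RNA counts, and was chosen by its label, with earlier results of these data known. The other 25 were 9 NSN oocytes (non-surrounded nucleolus, no ring) and 16 SN oocytes (surrounded nucleolus, complete ring). All 26 were fully grown wildtype C57Bl6/Babr oocytes from 2 mice aged 12 weeks, freed of cumulus cells and frozen one by one after scoring. The letters C and D in the oocyte labels are taken here as the 2 mice, which the labels themselves do not state. On this reading the intermediate oocyte, D-15, came from mouse D, together with 4 of the NSN and 7 of the SN oocytes. Mouse C gave the other 5 NSN and 9 SN oocytes. No second intermediate oocyte was analysed here, so each of its values is a description of 1 cell, without replicate error and without a test. Counting error is given as the 95% exact Poisson interval of its own count, and for a count of 0 as an upper limit of 3 counts. The spread between cells comes from the NSN and SN oocytes.

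Mammalian oocytes build up a store of messenger RNA while they grow, and transcription in the fully grown oocyte falls silent as its chromatin condenses around the nucleolus. From then on the store can be translated, kept dormant or degraded, but is hardly renewed until the embryonic genome is activated. An NSN nucleus is the transcribing form and an SN nucleus the silent form, and the intermediate ring is the morphological step that joins them.

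Poly-A RNA was counted as reads without molecular identifiers over 38540 transcripts. The library of D-15 held 2163635 counts, against 1886716 to 2983344 in NSN and 1358383 to 3647827 in SN oocytes, and 3 counts in it correspond to 1.39 CPM (counts scaled to a common library total of 1000000). The oocyte expressed the defining oocyte genes that could be looked up by name, with 3056 CPM of Zp3 (egg coat glycoprotein), 1424 CPM of Astl (the cortical granule protease ovastacin), 1618 CPM of Bcl2l10 (an oocyte BCL2 family member), 519 CPM of Nobox (an oocyte homeobox factor) and 922 CPM of Oog4. Of 16 granulosa and cumulus markers 1 had a named transcript, Amh (anti-Müllerian hormone), and it had 0 counts in D-15, for which the limit of 3 counts is 1.39 CPM. The other 15 could not be looked up, so carry-over of somatic RNA was not tested.

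The 9888 transcripts that averaged 20 counts or more took 97.9% of the counts of D-15. Across them D-15 most often lay where the NSN and SN ranges overlapped. Its value fell within both the NSN range and the SN range (lowest to highest oocyte) for 6467 transcripts (65.4%). It fell within the NSN range alone for 678 (6.86%), within the SN range alone for 1848 (18.7%) and within neither for 895 (9.05%). The last group comprised 371 transcripts above both ranges, 518 below both and 6 in a gap between them.

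A range over 16 oocytes is wider than one over 9, so these shares were read against those of every other oocyte, placed in the same way against its fellows. NSN oocytes lay in the NSN range alone for 7.02 to 13.1% of transcripts (median 9.55%) and SN oocytes for 2.25 to 12.6% (median 4.13%). The share of D-15, 6.86%, was below all 9 NSN oocytes and above 14 of 16 SN oocytes. For the SN range alone, NSN oocytes had shares of 8.72 to 18.6% (median 13.98%) and SN oocytes of 13.1 to 22.7% (median 20.8%), and the 18.7% of D-15 was above all NSN oocytes and above 4 SN oocytes. By neither measure did it leave the spread of the SN oocytes, although its NSN share was higher than most of them reached. Its 9.05% outside both ranges was unexceptional, since held-out NSN oocytes had 4.34 to 13.6% and SN oocytes 2.90 to 16.8%. SN oocytes C-13 and D-28 stood apart from their stage, with NSN-only shares of 12.6% and 9.74%, and without C-13 the NSN-only share of D-15 became 10.1%.

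**Figure D1:**
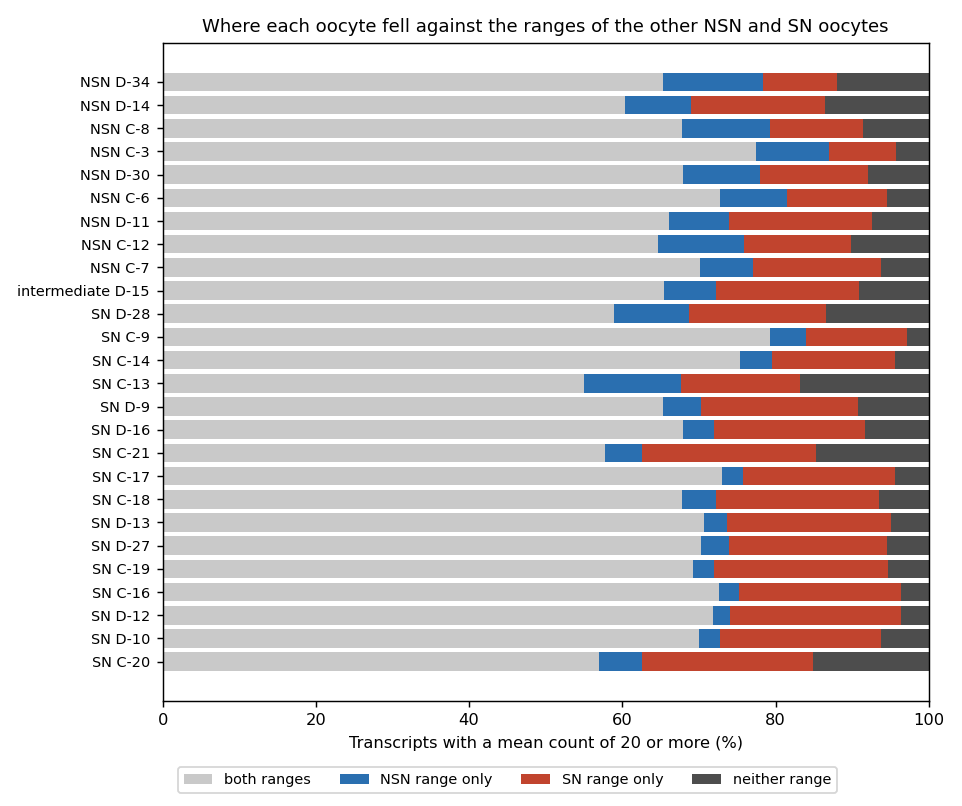
Share of the 9888 transcripts (horizontal axis, %) for which each oocyte lay within both ranges, the NSN range only, the SN range only or neither, with each NSN and SN oocyte placed against the others of its stage and all of the other stage. Oocytes are ordered by stage and then by their position along the falling transcripts, and the intermediate oocyte D-15 (6.86% NSN only, 18.7% SN only) sits between the groups.

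Transcripts that differed between the stages were then used as a ruler. Between NSN and SN oocytes, edgeR's quasi-likelihood test called 1344 of 16657 transcripts lower in SN (8.07%) and 901 higher (5.41%) at an adjusted p under 0.05, with D-15 left out. With scaling by library size alone the counts were 1574 lower and 583 higher. The rises rested partly on single NSN oocytes, and numbered 490 in the fit without D-34 and 558 in the fit without C-12. Among the 9888 abundant transcripts 743 fell and 861 rose. D-15 lay in the SN range alone for 258 of these falls (34.7%) and in the NSN range alone for 137 (18.4%). Of the rises, 226 (26.2%) were in the SN range alone and 100 (11.6%) in the NSN range alone. The 8284 transcripts with no call had 16.5% and 5.32%. Ranges overlap less where the stages differ, so the call itself raises such shares in any oocyte. These shares were not taken for held-out oocytes, and the SN range also spans more cells. They do not place D-15 on their own.

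On a scale where 0 is the NSN mean and 1 the SN mean of log2(CPM + 1), D-15 stood past the midpoint along the falling transcripts. Over 604 falls with stage means at least 0.5 apart its median position was 0.603, and the middle 50% of transcripts spread from 0.266 to 1.03. Held-out NSN oocytes had medians from -0.374 to 0.416 (mean 0.0657 ± 0.219, SD, n = 9) and SN oocytes from 0.553 to 1.14 (mean 0.929 ± 0.174, SD, n = 16). D-15 was thus beyond every NSN oocyte and beyond 1 SN oocyte, D-28 at 0.553, and SN oocyte C-9 was next at 0.631. The NSN oocyte nearest to it was C-7 at 0.416. The stages themselves did not overlap on this measure, and D-15 was inside the lower end of the SN spread.

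The transcripts did not share one position. D-15 was nearer to the NSN mean at 254 of the 604 falls (42.1%), a share that ran from 57.0 to 91.5% in NSN and from 9.11 to 44.0% in SN oocytes. It was past the SN mean at 25.8% and on the far side of the NSN mean at 11.4%. The interquartile range of its positions, 0.761, was within the spread of the other oocytes. It ran from 0.570 to 0.845 in NSN and from 0.582 to 0.999 in SN oocytes. That of D-15 was wider than in 6 of 9 NSN and 11 of 16 SN oocytes. Sorting the falls by the size of the stage difference gave medians of 0.533, 0.640, 0.656 and 0.568 from the smallest to the largest of 4 equal groups, and sorting by mean count gave 0.650, 0.566, 0.673 and 0.556 from the scarcest to the most abundant. Neither the size of the fall nor abundance thus sorted the transcripts by position.

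Transcripts that were higher in SN gave a less certain placement. Over 229 rises the median position of D-15 was 0.791, with the middle 50% from 0.223 to 1.13. That interquartile range, 0.908, was wider than in 8 of 9 NSN and 14 of 16 SN oocytes. This measure did not divide the stages cell by cell, because held-out NSN oocytes ran from -0.813 (D-34) to 1.05 (D-14) and SN oocytes from -0.319 (C-13) to 1.49. NSN oocytes D-14 and D-11, both from mouse D, scored 1.05 and 1.02 and were higher than D-15. Among the SN oocytes 5 were lower than D-15 and 11 higher. With stage means and calls from mouse D alone its median over 129 rises was 0.0719, and with those of mouse C it was 0.879, so the position along the rises depended on which animal set the scale. It depended on the size of the rise as well. Sorting the rises by the size of the stage difference gave medians of 0.875, 0.824, 0.836 and 0.587 from the smallest to the largest of 4 equal groups. With both animals and stage means at least 1 apart the median was 0.0909. Those rises are only a part of the last group, which starts at a difference of 0.685. The same change of animal left the falls at 0.513 (mouse D, 329 transcripts) and 0.671 (mouse C).

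**Figure D2:**
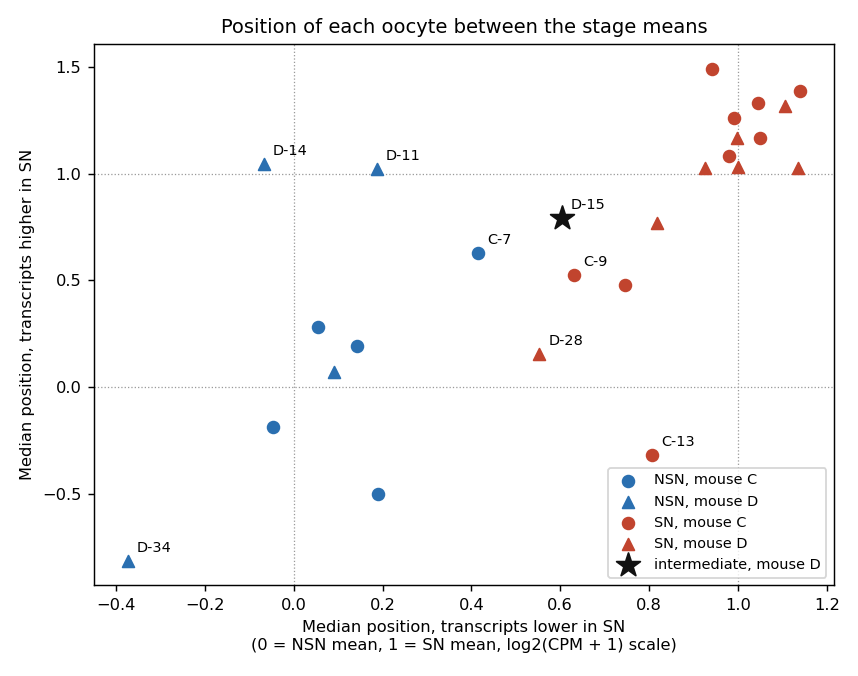
Median position of each of the 26 oocytes over transcripts lower in SN (horizontal axis) and higher in SN (vertical axis), where 0 is the NSN mean and 1 the SN mean on the log2(CPM + 1) scale and each NSN or SN oocyte was placed by a fit without it. Along the horizontal axis the star (D-15, 0.603) lies between NSN oocyte C-7 (0.416) and SN oocyte C-9 (0.631), next to D-28 (0.553), whereas on the vertical axis the stages overlap.

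A principal component fitted to the 500 most variable transcripts of the 25 other oocytes placed D-15 in the same region. Projected on the first component it lay at 0.731 of the distance from the NSN mean to the SN mean. Held-out NSN oocytes lay between -0.117 and 0.377 and SN oocytes between 0.596 (C-9) and 1.23. D-15 was above C-9 and D-28 and below the other 14 SN oocytes.

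The sharpest ruler was the small set of transcripts whose NSN and SN values did not overlap at all. Among the 9888 abundant transcripts 41 (0.415%) were lower in every SN oocyte than in any NSN oocyte and 3 (0.0303%) were higher. D-15 was divided over the 41 falls: it lay in the NSN range for 19, in the SN range for 17 and in the gap for 5. Its median position over them was 0.450, from -0.218 to 1.37.

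No SN oocyte showed such a division. Each held-out SN oocyte lay in the SN range for 60.8 to 97.6% of its separated falls and in the NSN range for at most 19.6%, whereas D-15 had 41.5% and 46.3%. Held-out NSN oocytes lay in the NSN range for 38.3 to 88.4% and in the SN range for at most 30%. The highest of these was C-7, with 23 of 60 in the NSN range, 18 in the SN range and 18 in the gap. The SN share of D-15 was thus above every NSN oocyte and below every SN oocyte. These ranges rest on their extreme cells, and without C-7 60 falls were separated and the NSN share of D-15 was 31.7%. Its own counting error left 11 of the 41 with the whole interval above the SN range and 10 with the whole interval below the NSN range.

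Of the 41 separated falls 13 had a gene name, and 9 of these were at NSN levels in D-15. Hsph1, an HSP110 family chaperone (chromosome 5, 149614287 to 149636376, minus strand, GRCm38), was the clearest. It stood at 202 CPM in D-15 (436 counts, interval 183 to 221), between 189 and 310 CPM in NSN oocytes (median 223) and between 89.4 and 152 CPM in SN oocytes (median 120). The whole interval of D-15 was above the highest SN oocyte. Between the stages Hsph1 fell by 0.99 ± 0.10 (SE) on the log2 scale, adjusted p = 1.03e-08.

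Eloa, the transcriptionally active subunit of elongin (chromosome 4, 136003368 to 136021763, minus strand), was also at the NSN level. It had 34.2 CPM in D-15 (interval 26.9 to 42.9), 23.5 to 92.2 CPM in NSN (median 38.7) and 7.36 to 22.5 CPM in SN oocytes (median 16.2), and its log2 fold change between the stages was -1.498 ± 0.19 (SE), adjusted p = 8.70e-07. A deubiquitinase and an actin-binding protein followed the same pattern. The deubiquitinase gene Usp35 had 17.1 CPM in D-15 (interval 12.0 to 23.6), against 11.4 to 56.3 CPM in NSN (median 20.9) and 2.16 to 10.6 CPM in SN oocytes (median 5.00). Lcp1, the actin-bundling plastin, had 34.2 CPM (interval 26.9 to 42.9), against 30.8 to 59.7 CPM in NSN (median 47.1) and 6.57 to 25.6 CPM in SN oocytes (median 15.5). For Eloa, Usp35 and Lcp1 the whole interval of D-15 was above the highest SN oocyte.

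The other 5 named falls at NSN levels were closer to the line. Rbm5, an RNA-binding splicing regulator (chromosome 9, 107740371 to 107770996, minus strand), had 18.03 CPM in D-15 (interval 12.8 to 24.6), 15.9 to 33.9 CPM in NSN (median 29.7) and 5.33 to 13.8 CPM in SN oocytes (median 7.75). Coil, the scaffold protein coilin of Cajal bodies, had 13.9 CPM (interval 9.36 to 19.8), 12.0 to 22.2 CPM in NSN (median 18.2) and 3.68 to 10.7 CPM in SN oocytes (median 6.82). Ppp4r1, a regulatory subunit of protein phosphatase 4, had 24.96 CPM (interval 18.7 to 32.6), 21.9 to 40.6 CPM in NSN (median 30.2) and 5.52 to 18.8 CPM in SN oocytes (median 10.1). In all 3 the measured value lay within the NSN range, but the counting interval reached into the SN range. Ldhc, the germ cell lactate dehydrogenase, stood at 19.9 CPM with an NSN minimum of 19.4 and an SN maximum of 17.4 CPM. Aspg, an asparaginase, stood at 10.6 CPM with an NSN minimum of 9.05 and an SN maximum of 8.76 CPM. The intervals of both touched both ranges.

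The other 4 named falls were at SN levels in the same cell. Zfp707, a zinc finger gene (chromosome 15, 75969123 to 75975868, plus strand), had 7 counts or 3.24 CPM in D-15 (interval 1.30 to 6.67), against 13.7 to 47.9 CPM in NSN (median 30.7) and 0.864 to 6.40 CPM in SN oocytes (median 2.87). It had the smallest adjusted p of all named falls, 1.36e-11, with a fall of 3.15 ± 0.23 on the log2 scale. Sdcbp2, which encodes syntenin-2 (chromosome 2, 151572622 to 151590005, plus strand), had 35.1 CPM (interval 27.7 to 44.0), 48.8 to 85.2 CPM in NSN (median 70.7) and 1.70 to 35.8 CPM in SN oocytes (median 8.57). For both genes the interval lay below the lowest NSN oocyte. The 2 differed in depth, since Zfp707 was at 0.94 of the way to the SN mean and Sdcbp2 at 0.34, just under the highest SN oocyte.

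Patl2, an oocyte protein that binds stored messenger RNA (chromosome 2, 122120108 to 122186189, minus strand), was slightly past the edge of the NSN range. It had 70.3 CPM in D-15 (interval 59.5 to 82.4), 77.9 to 200 CPM in NSN (median 114) and 36.2 to 72.0 CPM in SN oocytes (median 47.2). Vav3, a guanine nucleotide exchange factor, had 7.39 CPM (interval 4.23 to 12.0), 10.5 to 33.1 CPM in NSN (median 19.6) and 1.40 to 8.52 CPM in SN oocytes (median 4.52). Counting error alone left either gene within reach of the NSN range.

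Gtf2b, the general transcription factor TFIIB (chromosome 3, 142765045 to 142783606, plus strand), was the named one of the 3 separated rises. D-15 held 367 CPM (793 counts, interval 341 to 393), while NSN oocytes held 219 to 314 CPM (median 293) and SN oocytes 336 to 796 CPM (median 375). The oocyte was in the SN range, with its whole interval above the highest NSN oocyte. Of the other 2 rises, which have no name, 1 was in the gap and 1 in the NSN range.

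**Figure D3:**
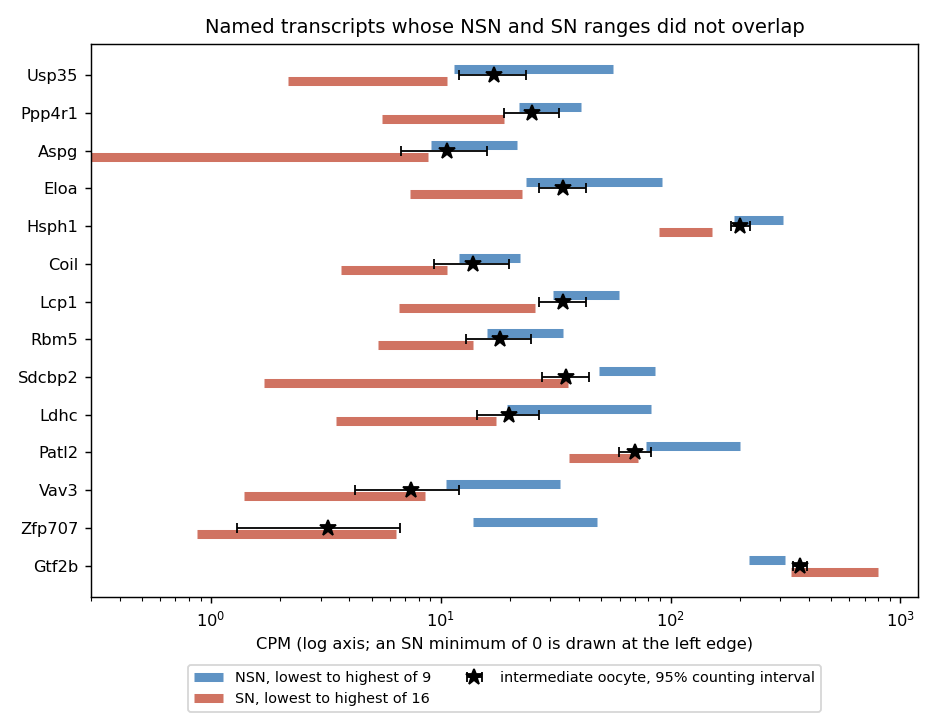
CPM (log axis) of the 14 named transcripts whose NSN and SN ranges did not overlap, with bars from the lowest to the highest of 9 NSN and of 16 SN oocytes and a star for the intermediate oocyte with its 95% counting interval. The star falls in the NSN bar for 9 of 13 falls, from Usp35 to Rbm5 and Ldhc, and in the SN bar for Sdcbp2, Patl2, Vav3, Zfp707 and for the rise Gtf2b.

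Because D-15 came from mouse D, the placement was repeated against the 4 NSN and 7 SN oocytes of that animal. Its shares became 38.3% within both ranges, 17.7% within the NSN range alone, 20.3% within the SN range alone and 23.7% within neither. With so few cells more ranges were separate: 395 falls (3.99% of the 9888) and 130 rises. Over the falls D-15 was again divided, with 147 in the NSN range (37.2%), 148 in the SN range (37.5%) and 70 in the gap. Its NSN share was within that of held-out NSN oocytes of mouse D (34.4 to 39.7%) and above all SN oocytes (5.02 to 20.4%). Each held-out NSN oocyte was set against fewer NSN cells than D-15 was, and over 464 to 610 falls. A range over fewer cells holds a further cell less often, so the NSN shares are not like for like. Its SN share lay between the NSN (12.9 to 33.1%) and the SN oocytes (52.7 to 71.8%).

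Over the rises of mouse D the oocyte was placed differently. It was in the NSN range for 64 of 130 (49.2%), more than any held-out oocyte of that mouse (22.8 to 39.2% in NSN, 8.39 to 34.2% in SN). The held-out NSN oocytes were again set against fewer NSN cells, over 166 to 290 rises, which lowers their NSN shares. It was in the SN range for 36 (27.7%), below all 7 SN oocytes (37.7 to 70.6%) and within the NSN spread (20.5 to 52.1%). Within its own animal, D-15 was thus split over the transcripts that fall. Over those that rise it was more often in the NSN range than in the SN range. Against both animals together the median position over the rises was 0.791. Ranges over 4 NSN oocytes are narrow, and an effect of the animal and the chance make-up of its few NSN cells cannot be told apart.

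**Figure D4:**
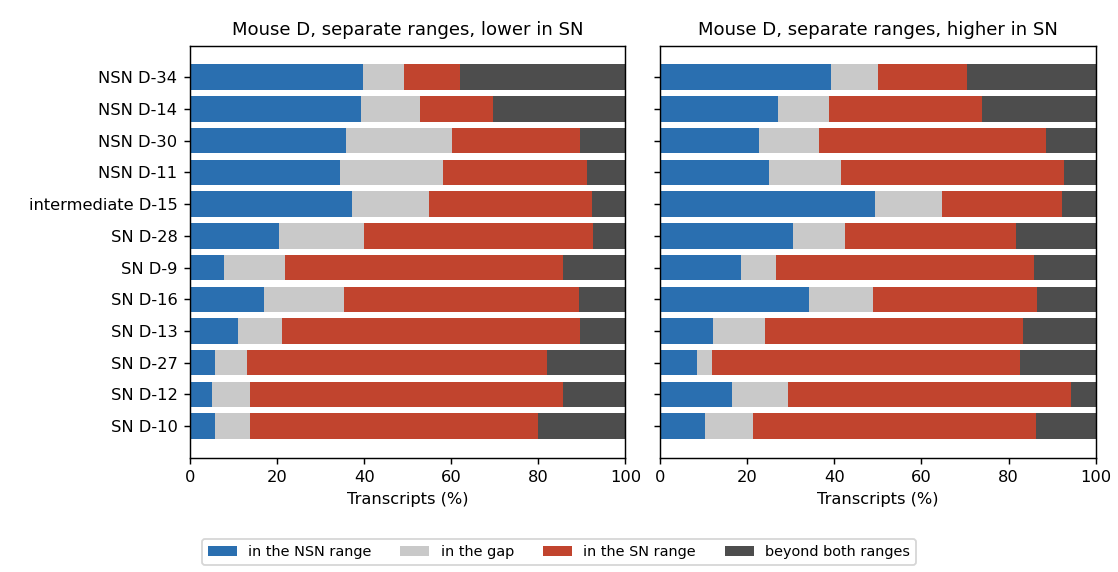
Share (horizontal axis, %) of the transcripts with non-overlapping ranges in mouse D at which each of its 12 oocytes lay in the NSN range, in the gap, in the SN range or beyond both, for transcripts lower in SN (left) and higher in SN (right). D-15 is close to evenly split on the left (37.2% NSN, 37.5% SN) and has the longest NSN bar on the right (49.2%). Each NSN oocyte was placed against fewer NSN cells than D-15, so their NSN bars are not like for like.

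The study's list of 100 transcripts that classify oocytes as NSN or SN was drawn from these NSN and SN cells but not from D-15. It was limited to genes that an earlier bulk RNA-seq comparison had also reported. The values of D-15 had no part in the choice, but the stage means and ranges they are set against did. The positions on this list therefore rest on a scale that the choice helped to set. All 65 falls and all 35 rises of the list passed the stage test, against 8.07% and 5.41% of all transcripts, which the choice itself fixed. Over the 65 falls D-15 had a median position of 0.552, from 0.00672 to 1.70, and over the 35 rises 0.587, from -0.592 to 1.85. It was nearer to the SN mean for 35 of the falls and 18 of the rises. Over all 1344 falls and 901 rises its medians were 0.658 and 0.701.

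The 65 falls again divided into members at either level. D-15 lay in the SN range alone for 29, in the NSN range alone for 18 and in both for 18, and none was outside both. The whole counting interval was outside the SN range for 6 of the 18 and outside the NSN range for 6 of the 29. The 2 groups were alike in abundance, with median mean counts of 42.7 (NSN range) and 41.2 (SN range), and in median log2 fold change, -1.44 and -1.35. Of the 35 rises, 25 were in both ranges, 7 in the SN range alone and 3 in the NSN range alone.

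Most genes could be named only through the lists that the study drew from the stage difference, so the number of called members in the gene lists that follow, against 8.07% lower and 5.41% higher among all transcripts, was largely fixed by the naming. RNA processing genes were found on both sides. The list held 16 genes, of which 11 fell and 3 rose among 15 tested transcripts, and D-15 had a median position of 0.53 over the falls and of -0.29 over the rises. It was in the SN range alone for 5 of the falls, in the NSN range alone for 2 (Rbm5 and Coil) and in both for 4. Lsm1, of the cytoplasmic ring that promotes decapping, was at 37.9 CPM in D-15, with 40.8 to 86.6 CPM in NSN (median 59.4) and 23.1 to 57.9 CPM in SN oocytes (median 34.4). Snrpb, a core protein of spliceosomal snRNPs, was at 19.9 CPM and within both ranges (18.9 to 46.1 CPM in NSN, median 30.1, and 2.01 to 28.8 CPM in SN, median 8.997). C1d, an exosome cofactor, had 1 count, Clp1, an RNA kinase of 3′ end and tRNA processing, had 7, and Aar2, a U5 snRNP assembly factor, had 17. Of these low-count genes only C1d was outside the NSN range.

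Transcription and chromatin genes made the longest list, with 17 falls and 7 rises among 24 tested transcripts (8.07% and 5.41% of all transcripts). D-15 had a median position of 0.52 over the falls and 0.706 over the rises, and its falls were in the SN range alone for 7, the NSN range alone for 5 and both for 5. Ubtf, the RNA polymerase I activator UBF, was at 15.7 CPM, with 11.3 to 36.8 CPM in NSN (median 15.4) and 3.01 to 15.02 CPM in SN oocytes (median 7.62). Zfp869 was at 27.7 CPM, with 18.5 to 42.6 CPM in NSN (median 34.4) and 3.72 to 19.1 CPM in SN oocytes (median 7.47). Both values were within the NSN range alone, in contrast to Zfp707, but the counting interval of Ubtf (10.9 to 22.0 CPM) reached into the SN range. The homeobox gene Noto, at 171 CPM, was below its lowest NSN oocyte (214 CPM) and within the SN range of 124 to 218 CPM. Of the rises, the Polycomb gene Phc2 (126 CPM) and the histone acetyltransferase gene Kat6b (104 CPM) were in both ranges.

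Genes of the egg coat and of oocyte identity were found at either level. Among 11 such genes, all tested, 7 fell and 4 rose (8.07% and 5.41% of all transcripts). D-15 had a median position of 0.39 over the falls and of 0.54 over the rises. The falls had 3 in the NSN range alone (Astl, Nlrp4c and Gpat2), 3 in both and 1 in the SN range alone (Tex19.2). Astl was at 1424 CPM in D-15 (interval 1374 to 1475), 1070 to 2113 CPM in NSN (median 1559) and 622 to 1304 CPM in SN oocytes (median 876), and it fell by 0.72 ± 0.13 on the log2 scale between the stages, adjusted p = 1.67e-04. The SN ceiling was the single highest of 16 cells, and the interval of D-15 was above it. Zp3, at 3056 CPM, was within both ranges (2379 to 5052 CPM in NSN, median 3779, and 1715 to 3916 CPM in SN, median 2192). Gpat2, which acts in the piRNA pathway of germ cells, was at 12.0 CPM, with 4.77 to 30.7 CPM in NSN (median 14.9) and 0.597 to 9.07 CPM in SN oocytes (median 3.94). Tex19.2, a germ cell gene, was at 4.16 CPM, with 6.84 to 28.8 CPM in NSN (median 13.7) and 1.004 to 9.61 CPM in SN oocytes (median 3.04). The counting interval of Tex19.2 in D-15 reached into the NSN range.

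The rising oocyte genes diverged among themselves. Bcl2l10 had 1618 CPM in D-15 (3500 counts, interval 1565 to 1672), above all NSN oocytes (985 to 1381 CPM, median 1204) and within the SN range (1188 to 1919 CPM, median 1519). Oosp3, an oocyte-secreted protein gene, had 391 CPM (interval 365 to 418), below all SN oocytes (481 to 1220 CPM, median 886) and within the NSN range (203 to 862 CPM, median 488). Its neighbour and paralog Oosp1 had 693 CPM, within both ranges. In D-15, therefore, Bcl2l10 was at the SN level and Oosp3 at the NSN level, each by more than the counting error. Oosp3 rose by 0.85 ± 0.19 between the stages with an adjusted p of 0.00254, but in mouse C alone its adjusted p was 0.338.

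Among cell cycle and chromosome genes 3 fell and 5 rose of 8 tested (8.07% and 5.41% of all transcripts), with median positions of 0.19 and 0.49. The falls were in the NSN range alone for Ppp4r1 and in both for Ran, a GTPase of nuclear transport (81.8 CPM, 78.4 to 157 CPM in NSN and 35.3 to 128 CPM in SN), and for Zc3hc1. Of the rises Nup107, a nuclear pore subunit, was at 209 CPM, above all NSN oocytes (123 to 171 CPM, median 146), and the others were within both ranges. They included Nipbl, the cohesin loader, at 70.3 CPM (56.2 to 134 CPM in NSN and 55.1 to 216 CPM in SN), and Cdc25a, a phosphatase that activates cyclin-dependent kinases, at 62.9 CPM (40.1 to 73.1 CPM in NSN and 45.6 to 111 CPM in SN).

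Protein folding and ubiquitin genes held 3 falls and 4 rises among 7 tested, and metabolism and transport genes 7 and 5 among 12 (8.07% and 5.41% of all transcripts). Over the folding and ubiquitin genes the median position of D-15 was 0.21 for the falls, with Hsph1 and Usp35 at the NSN level, and 1.03 for the rises. The remaining fall was Fkbp4, an HSP90 co-chaperone, which had 21.3 CPM and was within both ranges (16.3 to 64.7 CPM in NSN, median 47.4, and 11.6 to 41.7 CPM in SN, median 20.1). Of the rises, Ube4b, a ubiquitin chain elongation factor, had 161 CPM and was above all NSN oocytes (71.3 to 124 CPM), and Wdtc1 (95.2 CPM) was within both ranges. Over the metabolic genes the median position was 0.35 for the falls and 0.42 for the rises. The mitochondrial complex III gene Uqcrc1, at 39.3 CPM, was within both ranges (38.9 to 132 CPM in NSN and 5.88 to 49.1 CPM in SN). The galactosyltransferase gene B4galt3, at 18.5 CPM, was just under its lowest NSN oocyte (18.6 CPM) and under the highest SN oocyte (19.21 CPM). These lists have few members and were compiled with the stage results known, so their medians describe the members alone.

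At the scarce end of the transcriptome D-15 held fewer detected transcripts than all NSN and most SN oocytes. All libraries were thinned once to 1358383 counts. D-15 then held 16928 transcripts with at least 1 count, against 18103 to 18907 in NSN (median 18358) and 16638 to 18263 in SN oocytes (median 17429). It was below all 9 NSN oocytes and below 14 of 16 SN oocytes, and below all 7 SN oocytes of mouse D (17054 to 17971). With at least 3 counts it held 13647, below all NSN and 15 SN oocytes. Its 100 most abundant transcripts took 20.5% of its counts, against 19.1 to 21.9% in NSN and 18.4 to 21.3% in SN oocytes. That share was above 15 SN oocytes. A total of 51 transcripts were at 0 in D-15 alone among the thinned libraries, with 12 to 48 such transcripts in an NSN and 15 to 62 in an SN oocyte. The part of cDNA synthesis in this 1 cell was not tested.

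The study also listed 382 transcripts as missing from SN oocytes, again from the NSN and SN cells alone. In the thinned libraries D-15 held 159 of them, against 297 to 337 in NSN (median 326) and 94 to 188 in SN oocytes (median 130), which the choice of the list had set apart. The value of D-15, which the choice did not use, was 0.871 of the way from the NSN to the SN mean. It was above 13 SN oocytes and below D-28 (188), C-9 (183) and C-14 (175). Among the deposited counts 189 of the 382 were at 0 in D-15, 64 had 1 count and 90 had at least 3. Their summed level was 253 CPM, against 588 to 1198 CPM in NSN (median 745) and 115 to 340 CPM in SN oocytes (median 162). The choice had used all of these NSN and SN cells, so every comparison with them on this list rests on a scale that the choice set. These comparisons therefore do not place D-15 on their own.

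Some of these scarce transcripts were at NSN levels or above in D-15. Kpna1, which encodes importin alpha 5, was chosen after its values were seen. It had 9 counts or 4.16 CPM (interval 1.90 to 7.90), with 0 to 4.09 CPM in NSN (median 1.68) and 0 to 0.711 CPM in SN oocytes (median 0). Hspbp1, an HSP70 nucleotide exchange factor chosen in the same way, had 7 counts or 3.24 CPM, with 1.59 to 9.06 CPM in NSN (median 5.05) and 0 to 2.92 CPM in SN oocytes (median 0). Both were above every SN oocyte, although the interval of Hspbp1 reached into the SN range.

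**Figure D5:**
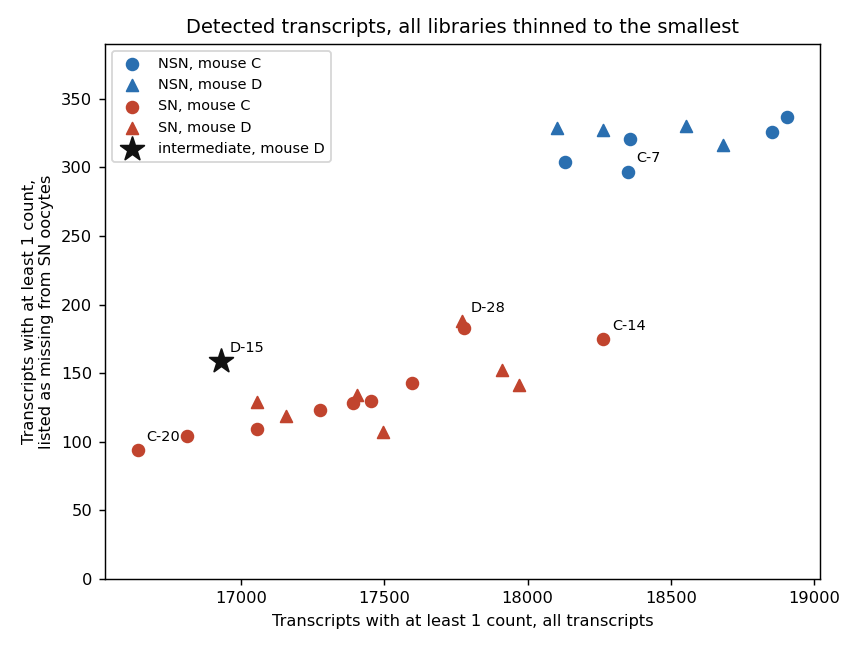
Transcripts with at least 1 count among all transcripts (horizontal axis) and among the 382 listed as missing from SN oocytes (vertical axis), in libraries thinned to the smallest total. D-15 (16928 and 159) lies near the low end of the SN oocytes on the horizontal axis and among them on the vertical axis. It is far from the NSN oocytes, which hold at least 18103 and 297. On the vertical axis the choice of the list had set the stages apart.

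A few transcripts in D-15 lay outside all 25 other oocytes. With the whole counting interval taken, 56 of the 9888 were above every other cell and 71 below. The like counts for other oocytes are not given here. By measured value alone D-15 had 371 above and 518 below, within the spread of the held-out oocytes. These had 212 to 791 above and 183 to 646 below in NSN, and 156 to 791 and 115 to 934 in SN. The 5 furthest on each side had no gene name, and 2 of each are given. TCONS_00038946 had 63 counts or 29.1 CPM, with 8.04 to 18.1 CPM in NSN (median 13.7) and 4.42 to 19.5 CPM in SN oocytes (median 10.6), and lay 0.55 on the log2 scale above the highest of them. TCONS_00041163 had 42.1 CPM, with 15.7 to 28.5 CPM in NSN (median 19.7) and 7.76 to 19.9 CPM in SN oocytes (median 15.1).

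On the low side the distances were larger. TCONS_00017847 had 3 counts or 1.39 CPM, with 7.41 to 27.03 CPM in NSN (median 15.1) and 6.71 to 26.03 CPM in SN oocytes (median 13.9). TCONS_00092096 had 2 counts or 0.924 CPM, with 8.38 to 18.9 CPM in NSN (median 14.1) and 4.38 to 22.7 CPM in SN oocytes (median 13.1). The log2 distances to the lowest other oocyte were -1.69 and -1.48. Neither transcript differed past the threshold between the stages (adjusted p = 0.881 and 0.798). Near-identical copies were not separable here: Nlrp4c, Oosp1, Oosp3, Ran, Snrpb and the zinc finger genes have close relatives. Of the 39 genes named by the rules given below, 10 overlap another annotated gene, 9 of them on the other strand. They are Rbm5, B4galt3, Lcp1, Gtf2b, Oosp3, Zc3hc1, Aspg, Patl2, Eloa and Coil. Strand use in counting was not stated, so reads of the overlapping gene may be part of their values.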

How the data were processed

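Single oocytes were profiled by G&T separation of poly-A RNA and full-length cDNA sequencing. After trimming, the authors aligned reads to GRCm38 (HISAT2 2.1.0) and quantified them over transcripts of an oocyte transcriptome assembled earlier, using SeqMonk. They deposited raw counts per transcript, not normalized, kept libraries above a minimum number of reads and left out outlier oocytes, so the count table is a selected set. The paper mentions a further intermediate library, which was not analysed here. A second deposited table, of the authors' own stage comparison, was not used, and 0 columns of the count table were left unused. The sources used here do not state strand use or the treatment of multi-mapping reads. The libraries were multiplexed for sequencing, and cells of the same mouse are not independent animals, so p-values measure the spread between these oocytes.

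Counts were converted to CPM by column total. Ranges ran from the lowest to the highest oocyte, ends included, for transcripts that averaged 20 counts or more over the 26 oocytes. Stages were compared with edgeR 4.0.16 (TMM, quasi-likelihood, stage as the only term, D-15 left out) after dropping transcripts that did not reach 3 counts in 9 oocytes, with Benjamini-Hochberg adjustment at 0.05, in R 4.3.3. Positions used log2(CPM + 1), called transcripts and stage means at least 0.5 apart, and each NSN and SN oocyte was placed by a fit and by means without it. DESeq2 1.42.0 served as an alternative, and Python 3.11.15 with numpy 2.4.6 and scipy 1.17.1 did the rest. Scripts were tested on simulated data. No 2 libraries were identical. Counts are reads without molecular identifiers, so intervals and limits cover counting error only.

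Names came from the study's supplementary lists for 366 transcripts and from GENCODE vM21 for 145 with an Ensembl identifier. Of these 511, 116 averaged 20 counts or more. Named genes were 8 falls and 6 rises chosen by smallest adjusted p, up to 4 members of each gene list, the named transcripts with separate ranges, and the 5 furthest outside all oocytes on either side. Other members of these lists were named as examples after their values were seen. The oocyte, the lists and the tests were chosen with earlier results of these data known.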

Additional observations from a re-analysis of the deposited data

Results flagged for a closer look

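Dixon's gap test, which flags about 1 in 20 groups by chance, was applied to 52 groups of values. It flagged 1 value, among the 9 NSN oocytes. This was Gpat2 in D-14, at 30.73 CPM the highest NSN oocyte, and it set the top of the NSN range within which D-15 (12.0 CPM) lay. Groups of more than 10 oocytes and the single intermediate oocyte were not examined in this way.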

How the results depend on the processing

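The median position over the falls stayed between 0.513 and 0.684 in 9 alternatives and between 0.560 and 0.632 when single oocytes were left out, and the share of the distance along the first component between 0.714 and 0.757 in 3. The median over the rises moved to 0.0909 with a minimum stage difference of 1 and to 0.0719 within mouse D, and ran from 0.633 to 0.901 without single oocytes. Against mouse D alone the shares within both ranges, the NSN range only and neither were 38.3%, 17.7% and 23.7%. With ranges from the second lowest to the second highest oocyte, the shares within both, the NSN range only, the SN range only and neither were 42.3%, 9.57%, 25.7% and 22.5%, since narrower ranges hold less. Without single oocytes these 4 shares ran from 61.4 to 65.3%, 5.79 to 10.1%, 16.9 to 22.7% and 9.12 to 10.8%. The share of separated falls in the NSN range (alternatives chosen after seeing the data) was 38.5% at a mean count of 10 or more and 37.2% within mouse D, and 31.7 to 50% without single oocytes. Detected transcripts of D-15 were 13647 at 3 counts or more and 17825 in the deposited counts, a change of definition and of depth. Rising transcripts numbered 583 (falling ones 1574) with scaling by library size only, and 490 to 1031 without single oocytes, and falling ones 1039 to 1638. With the mouse as a further term 1347 transcripts were lower and 910 higher in SN. No paired analysis was possible because each oocyte is a single cell of 1 stage and its number names that cell only. With 1 oocyte, depth limits single genes most, and the limit of 3 counts for a count of 0 is 1.39 CPM in D-15.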
